A study of Homo sapiens with 12 samples.

Results

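MicroRNA host transcripts are the long RNAs from which microRNA hairpins are cut, and 5 of them, MIR17HG, MIR31HG, MIR22HG, MIR210HG and MIR100HG, were chosen by name. Of these 5, 3 were measured, MIR17HG, MIR31HG and MIR100HG, among 15074 genes in all. MIR22HG and MIR210HG were not analysed here. Another 23 genes carrying a MIR...HG symbol were used as the surrounding family.

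All cells were HCT116, a human colorectal carcinoma line, and RNA was sequenced as ribosomal RNA-depleted, stranded total RNA. The study asked which transcripts differ between cells reconstituted with wild-type AGO2 and cells reconstituted with the 5xA mutant. There were 4 groups of 3 libraries. FH-5xA and FH-WT were AGO2 knockout cells carrying FH-AGO2 as the 5xA mutant or as wild type, on the same knockout background. The knockout group was AGO2 knockout cells without FH-AGO2, and the parental group was HCT116 as obtained. Each group was 1 line, sampled from triplicate wells 48 h after 500000 cells were seeded in each, so a p-value measures the spread between wells and not between independently made lines. The 5xA mutant has alanines in place of a cluster of phosphorylation sites in AGO2, as background.

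A host transcript is made by RNA polymerase II, and the Microprocessor (DROSHA with DGCR8) cuts hairpins out of it in the nucleus. DICER1 trims each hairpin to a mature microRNA, which AGO2 carries to matching sites in mRNAs. The host's own RNA level is therefore not the level of the mature microRNA, which was not measured here. MIR17HG carries the miR-17 to miR-92a cluster, an oncogenic cluster transcribed under MYC and E2F factors. MIR31HG starts near the CDKN2A and CDKN2B genes and carries miR-31, and MIR100HG carries miR-100, let-7a-2 and miR-125b-1, a cluster known in colorectal cancer cells for resistance to cetuximab.

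The mature strands of the 3 hosts are shown because their seeds (bases 2 to 8, in capitals) define the target sites used further on. They are written 5′ to 3′ as RNA, from RefSeq (GRCh38.p14), and all 10 were matched by name. The first 6 come from MIR17HG, on the plus strand of chromosome 13 (miR-17-5p at chr13:91350618-91350640, miR-92a-3p at chr13:91351361-91351382).
miR-17-5p: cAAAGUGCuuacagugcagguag
miR-20a-5p: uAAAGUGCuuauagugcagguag
miR-18a-5p: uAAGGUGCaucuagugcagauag
miR-19a-3p: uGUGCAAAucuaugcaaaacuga
miR-19b-3p: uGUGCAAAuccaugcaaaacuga
miR-92a-3p: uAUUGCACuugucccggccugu
miR-31-5p: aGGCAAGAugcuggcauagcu
miR-100-5p: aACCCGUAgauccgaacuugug
let-7a-5p: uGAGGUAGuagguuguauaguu
miR-125b-5p: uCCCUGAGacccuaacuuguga
miR-17-5p and miR-20a-5p share a seed, and so do miR-19a-3p and miR-19b-3p. The strand from MIR31HG lies on the minus strand of chromosome 9 (miR-31-5p, chr9:21512158-21512178). The last 3 lie on the minus strand of chromosome 11 (miR-100-5p at chr11:122152275-122152296, let-7a-5p at chr11:122146568-122146589, miR-125b-5p at chr11:122099809-122099830).

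The 3 hosts differ in how their hairpins sit, by GENCODE 29 (GRCh38). MIR17HG (ENSG00000215417, chr13:91347820-91354579, plus strand) spans 6760 bases with 3492 exonic bases. Its 6 hairpins begin between 2785 and 3494 bases from the start, inside an exon of 2 of its 3 transcripts. MIR31HG (ENSG00000171889, chr9:21455642-21559669, minus strand) spans 104028 bases with only 745 exonic bases, and its single hairpin, MIR31, lies in an intron 47484 bases from the start. MIR100HG (ENSG00000255248, chr11:122028327-122556721, minus strand) spans 528395 bases, has 39 annotated transcripts and 19385 exonic bases. Its hairpins MIR100, MIR10526, MIRLET7A2 and MIR125B1 are all intronic, and the last lies inside 23 of the 39 transcripts. Reads counted over exons therefore cover the hairpin stretch only in MIR17HG, and no source used here says how reads shared with the hairpin genes were counted.

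**Figure D1:**
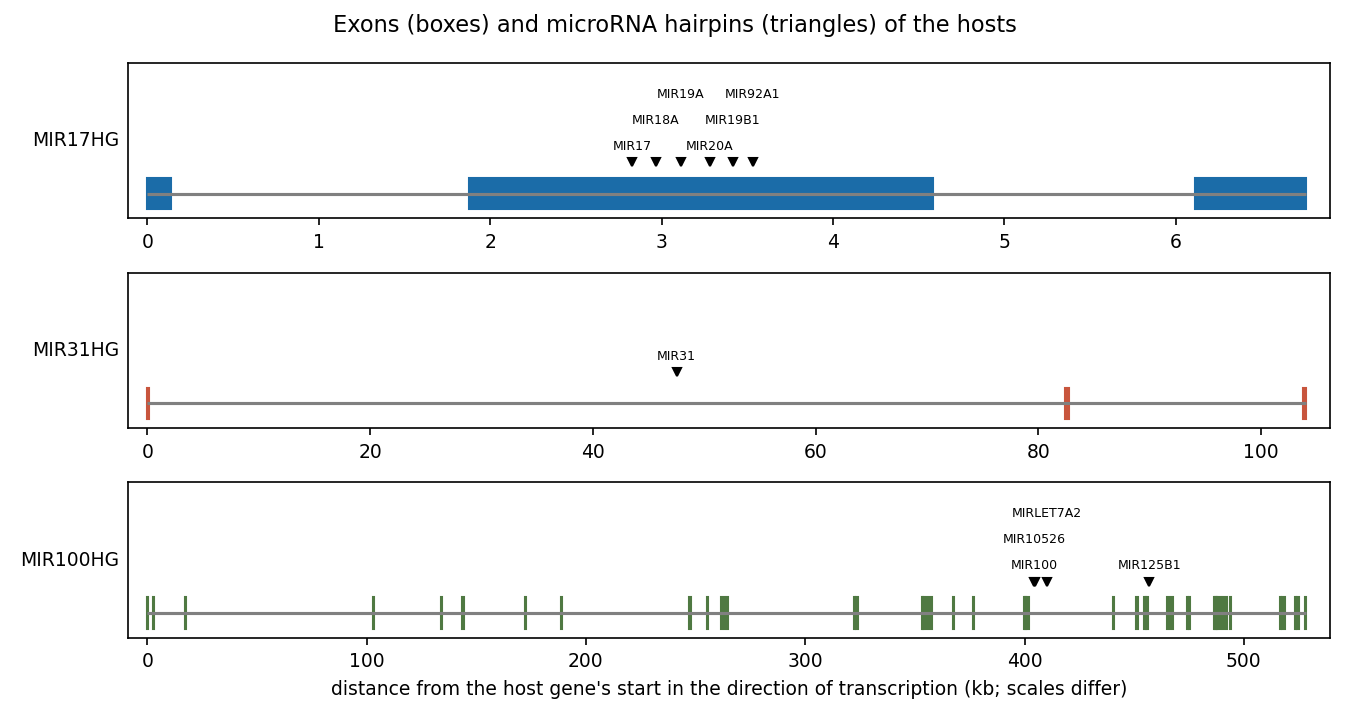
Maps of MIR17HG, MIR31HG and MIR100HG, with distance from the gene's start in the direction of transcription (kb) on each x axis, on a scale of its own. Boxes are merged exons of GENCODE 29 and triangles are hairpins: the 6 hairpins of MIR17HG fall inside an exon, while MIR31 and the 4 hairpins of MIR100HG fall in introns.

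The values were the authors' own comparisons, 5 tables of log2 fold changes with likelihood ratio tests from edgeR, and no value per library was analysed here. The depth of the libraries is therefore unknown. A gene was called when its false discovery rate (FDR) was under 0.05. A standard error (SE) came from the fold change and the test's score, and a level for each group was fitted from the fold changes and the mean expression in CPM (counts scaled to library size). No table compares FH-5xA with FH-WT, so that difference and its test were derived from the deposited tables. AGO2 mRNA, the check of the labels, was at -0.35 ± 0.07 (log2, SE) in knockout against parental cells and at 0.73 ± 0.07 in FH-5xA and 0.75 ± 0.07 in FH-WT against knockout in the authors' deposited tables. All 3 changes were called, and FH-5xA and FH-WT differed in AGO2 by -0.02 ± 0.07 (derived, adjusted p = 0.924). AGO2 mRNA therefore cannot check which of the reconstituted lines is which. Its fitted level was still 160.8 CPM in knockout, with 205.2 CPM in parental cells. All 5 epithelial markers were measured, with summed fitted levels of 2157 CPM in FH-5xA, 2006 CPM in FH-WT, 2293 CPM in knockout and 2818 CPM in parental cells. The sum hides differences between markers. In FH-WT against parental cells CDH1 was at -1.64 ± 0.09, EPCAM at -0.52 ± 0.07, KRT8 at -0.53 ± 0.16 and KRT18 at -0.65 ± 0.08 in the authors' deposited table. KRT19 was not called there, at -0.19 ± 0.14, in the authors' deposited table. CDH1 was higher in FH-5xA than in FH-WT by a derived 0.43 ± 0.10 (adjusted p = 0.002). None of 5 blood, 4 fibroblast and 4 endothelial markers was in the tables. Mitochondrially encoded RNA made up 1.99% of fitted expression in FH-5xA, 3.91% in FH-WT, 1.29% in knockout and 0.87% in parental cells.

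The hosts stood at very different levels. MIR100HG averaged 7.15 log2 CPM over all libraries (141.6 CPM), above 89.1% of the measured genes. MIR17HG averaged 5.00 log2 CPM (32.1 CPM), above 58.3% of genes. MIR31HG averaged 0.86 log2 CPM (1.81 CPM), above 10.8% of genes. Per kilobase of exon the gap between the first pair closed: MIR17HG had fitted levels of 8.44, 8.91, 7.91 and 11.5 CPM per kb in FH-5xA, FH-WT, knockout and parental cells, and MIR100HG had 7.32, 6.96, 7.37 and 7.57. MIR31HG had 2.81, 1.45, 2.83 and 2.64 CPM per kb in the same groups. The order of MIR17HG and MIR100HG per kb was not tested, and it depends on the exons counted.

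**Figure D2:**
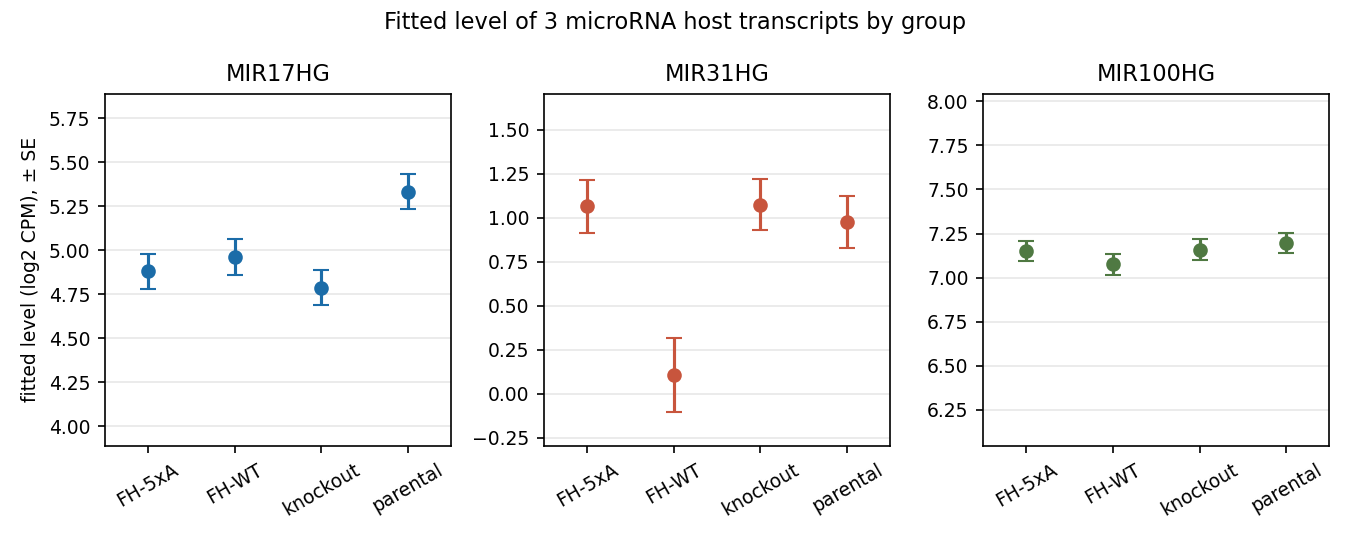
Fitted level (log2 CPM, y axis, the same span in each panel) of MIR17HG, MIR31HG and MIR100HG in FH-5xA, FH-WT, knockout and parental cells. Points are fitted group levels and bars are ± 1 SE (3 libraries a group): MIR17HG is highest in parental cells at 5.33, MIR31HG is lowest in FH-WT at 0.11, and MIR100HG lies between 7.08 and 7.20.

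MIR17HG, the host of the miR-17 to miR-92a cluster, was lower in every AGO2-edited line than in parental cells. Its fitted level was 29.5 CPM in FH-5xA, 31.1 CPM in FH-WT, 27.6 CPM in knockout and 40.3 CPM in parental cells. The order of the levels was parental, FH-WT, FH-5xA, knockout, and the 3 edited lines lay within 0.17 of each other on the log2 scale. In knockout against parental cells it fell by 0.54 ± 0.14 (log2, SE, FDR 0.000426, a fold of 1.46) in the authors' deposited table. It was also lower in FH-5xA (-0.45 ± 0.14, FDR 0.00424) and in FH-WT (-0.37 ± 0.14, FDR 0.0277) than in parental cells in the authors' deposited tables. These 3 comparisons share the parental libraries.

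Reconstitution left MIR17HG near the knockout's level. The change was 0.09 ± 0.14 in FH-5xA (FDR 0.742, 95% interval -0.182 to 0.369) and 0.17 ± 0.14 in FH-WT against knockout (FDR 0.505, -0.108 to 0.45) in the authors' deposited tables. FH-5xA and FH-WT differed by -0.08 ± 0.14 (derived, adjusted p = 0.818, -0.357 to 0.202). These intervals include a return of part of the deficit, so neither a return nor its absence was shown.

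In knockout against parental cells 1 of the 3 hosts was called, and it was lower, against a background of 44.4% of all genes in either direction and 21.2% lower in the authors' deposited table. In FH-WT against parental 2 of 3 hosts were called, both lower (background 34.4%, with 18.3% higher and 16.1% lower, in the authors' deposited table). In FH-5xA against parental 1 of 3 was called, lower (background 43.8%, with 20.9% lower, in the authors' deposited table). With 3 hosts, counts of this size say nothing particular about the hosts.

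The genes nearest to MIR17HG in their 3 fold changes against parental cells were B3GALT6, a galactosyltransferase of proteoglycan linkers (distance 0.0155 on the log2 scale), RFC3, a subunit of the clamp loader of DNA replication (0.0163), and RRP7A, a ribosome biogenesis factor (0.0219). In knockout against parental cells B3GALT6 was at -0.56, RFC3 at -0.54 and RRP7A at -0.54 in the authors' deposited table. No measured gene lay within 1 Mb of MIR17HG. Over the 8 measured genes within 5 Mb the median change in knockout against parental was 0.00 and 1 was called lower, with a background of 44.4%, from the authors' deposited table.

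Of 7 measured factors known to act on the MIR17HG promoter, 4 were called lower and 1 higher in knockout against parental cells, with a median of -0.22, in the authors' deposited table. Over all genes 21.2% were called lower and 23.2% higher, with a median of -0.01, in the authors' deposited table. MYC, the transcription factor that drives the cluster, was at -0.60 ± 0.12 (FDR 1.4e-06) in the authors' deposited table. The cell cycle activators E2F2 (-0.34 ± 0.08), E2F1 (-0.36 ± 0.10) and E2F3 (-0.22 ± 0.08) were called lower as well in the authors' deposited table. MNT, a MYC antagonist, was called higher at 0.47 ± 0.15 in the authors' deposited table. In FH-WT against knockout none of the 7 was called, and none had an unadjusted p under 0.05 in the authors' deposited table (edgeR), where MYC was at 0.04 ± 0.12. The background there was 10.1% of all genes called in the authors' deposited table. E2F3 was called higher in FH-5xA against knockout at 0.32 ± 0.08 in the authors' deposited table. Whether these factors have a part in the level of MIR17HG was not tested. The factors, like all gene lists here, were chosen with earlier results of these data known.

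MIR31HG, the miR-31 host, was lower in FH-WT cells than in each other group. Its fitted level was 2.09 CPM in FH-5xA, 1.08 CPM in FH-WT, 2.11 CPM in knockout and 1.97 CPM in parental cells, so the other 3 groups stood close together. In FH-WT against knockout it fell by 0.97 ± 0.25 (log2, SE, FDR 0.00397, 95% interval -1.46 to -0.471) in the authors' deposited table. Here 1 of 3 hosts was called, with a background of 10.1% over all genes, 4.21% higher and 5.85% lower, from the authors' deposited table. Against parental cells FH-WT was at -0.87 ± 0.26 (FDR 0.00341) in the authors' deposited table.

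In FH-5xA the level of MIR31HG was at -0.01 ± 0.21 against knockout (FDR 0.984, 95% interval -0.422 to 0.402), where 0 of 3 hosts were called, 0 had an unadjusted p under 0.05, and the background was 11.3% (5.04% higher and 6.24% lower), in the authors' deposited table (edgeR). Against parental cells FH-5xA was at 0.09 ± 0.21 (FDR 0.771) and knockout at 0.10 ± 0.21 (FDR 0.728) in the authors' deposited tables. FH-5xA exceeded FH-WT by 0.96 ± 0.26 (derived, adjusted p = 0.0131, 95% interval 0.454 to 1.46), a fold of 1.94. Here 1 of 3 hosts was called, against a background of 4.11% (1.98% higher and 2.13% lower). The comparisons with FH-WT all rest on the same 3 FH-WT libraries.

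The MIR31HG difference has limits that lie beside it. At about 1 to 2 CPM it is among the lower measured genes, and with the knockout's variance counted in full on both sides its adjusted p was 0.444. FH-WT was also the group with the highest share of mitochondrially encoded RNA, at 3.91%, against 1.99% in FH-5xA, and the part of this share in the MIR31HG result was not tested. With the chromosome 7 and mitochondrial genes left out and the fold changes centred again, the difference was 0.95 (adjusted p = 0.014). Among 769 long noncoding genes between 0 and 2 log2 CPM, 12 were called higher and 11 lower in FH-WT against knockout (2.99%) in the authors' deposited table, with a median of 0.01. In FH-5xA against FH-WT 7 of the 769 were called higher and 3 lower (1.3%).

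**Figure D3:**
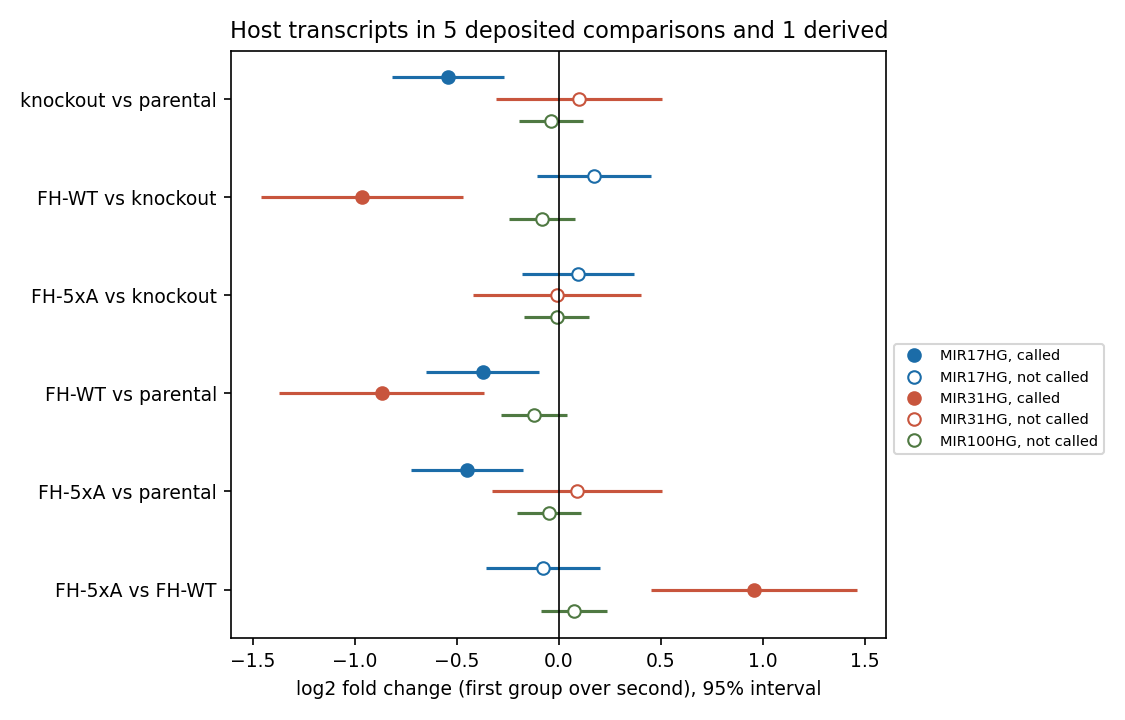
Log2 fold changes (x axis, first group over second) of the 3 hosts in the 5 deposited comparisons and in the derived FH-5xA against FH-WT, with 95% intervals. Filled points were called at an FDR under 0.05: MIR17HG in the 3 comparisons with parental cells, MIR31HG in the 3 that involve FH-WT and another line, and MIR100HG in none.

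The nearest measured genes on either side of MIR31HG, outside its span, were not called in FH-WT against knockout. KLHL9, a ubiquitin ligase adaptor 120262 bases away, was at 0.01 ± 0.08 in FH-WT against knockout, and MTAP, a methionine salvage enzyme 242874 bases away, at 0.06 ± 0.08 in the authors' deposited table. KHSRPP1, a pseudogene, was at 0.10 ± 0.12 and FOCAD at -0.23 ± 0.09, also not called, in the authors' deposited table. KHSRPP1 was called in FH-5xA against knockout at 0.43 ± 0.11 in the authors' deposited table. Over 22 measured genes within 5 Mb the median was 0.02 with 1 called higher and 3 lower in FH-WT against knockout (background 4.21% higher and 5.85% lower) in the authors' deposited table. In FH-5xA against FH-WT the derived median over the 22 was 0.01.

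Inside the MIR31HG span, on the same strand and with no shared exonic base, lies IFNE, an interferon gene. IFNE rose in knockout against parental cells by 1.21 ± 0.26, and it was lower than in knockout in FH-5xA (-1.22 ± 0.26) and in FH-WT (-1.23 ± 0.28) in the authors' deposited tables. Like MIR31HG, IFNE was called lower in FH-WT against knockout (FDR 0.000437) in the authors' deposited table (edgeR). For IFNE, FH-5xA and FH-WT differed by 0.01 ± 0.31 (derived, adjusted p = 0.99). SNORD39, a small nucleolar RNA in the same span, was not called, at 0.39 ± 0.16 in FH-5xA and 0.17 ± 0.18 in FH-WT against knockout in the authors' deposited tables.

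The genes nearest to MIR31HG in their 3 fold changes against parental cells were STBD1, a glycogen-binding protein (distance 0.25), CRK, a signalling adaptor (0.274), and FTCDNL1 (0.314). None of them was called in FH-5xA against FH-WT, where STBD1 was at 0.999 ± 0.35 (derived, adjusted p = 0.072) and CRK at 0.75 ± 0.30 (derived, adjusted p = 0.12).

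Of 10 measured genes that act on MIR31HG or share its 9p21 region, 1 was called higher and 1 lower in FH-WT against knockout (background 10.1%) in the authors' deposited table. In FH-WT against parental cells 5 of the 10 were called higher and none lower, with a median of 0.25, where 18.3% of all genes were called higher, in the authors' deposited table. The same counts, 5 higher and none lower, held in FH-5xA against parental cells, with a median of 0.17 and 22.9% of all genes called higher, in the authors' deposited table. In FH-WT against knockout the higher one was EZH2, the methyltransferase of the Polycomb repressive complex, at 0.28 ± 0.08 in the authors' deposited table. The lower one there was CDKN2B, a cell cycle inhibitor, at -0.37 ± 0.12 in the authors' deposited table. In FH-5xA against FH-WT 0 of 10 passed the adjusted test (background 4.11%) and 2 had an unadjusted p under 0.05 (derived). In knockout against parental cells 4 of 10 were called higher and 1 lower, with a background of 23.2% higher and 21.2% lower, in the authors' deposited table. The kinase BRAF (1.02 ± 0.08, chromosome 7), CDKN2B (0.97 ± 0.12) and NFKB1 (0.24 ± 0.07) were among the higher ones, and the Polycomb subunit EED (-0.27 ± 0.11) was the lower one, in the authors' deposited table.

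MIR100HG, the most abundant of the 3 hosts, was not called in any comparison. Its fitted level was 141.9 CPM in FH-5xA, 134.9 CPM in FH-WT, 142.9 CPM in knockout and 146.8 CPM in parental cells. The largest of its deposited changes was -0.12 ± 0.08 in FH-WT against parental cells (FDR 0.256, 95% interval -0.283 to 0.0391) in the authors' deposited table. Knockout against parental was at -0.04 ± 0.08 (FDR 0.728, -0.197 to 0.12) in the authors' deposited table. Against knockout, FH-5xA was at -0.01 ± 0.08 and FH-WT at -0.08 ± 0.08 in the authors' deposited tables. FH-5xA and FH-WT differed by 0.07 ± 0.08 (derived, adjusted p = 0.67, -0.088 to 0.234). Neighbouring groups in this order did not differ beyond their error.

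Some genes beside MIR100HG were called where the host was not. SORL1, a sorting receptor, rose by 0.69 ± 0.08 and UBASH3B, a tyrosine phosphatase 98954 bases away, by 0.80 ± 0.07 in knockout against parental cells in the authors' deposited table. SORL1 was lower than in knockout in FH-5xA (-0.35 ± 0.08) and in FH-WT (-0.43 ± 0.08), and so was UBASH3B (-0.34 ± 0.07 in FH-5xA and -0.33 ± 0.07 in FH-WT), in the authors' deposited tables. JHY was at 0.29 ± 0.11 in knockout against parental and was called, and the pseudogene BMPR1AP2 was not called at -0.37 ± 0.30, in the authors' deposited table. BLID, inside the MIR100HG span on its strand with 83 shared exonic bases, was called at 0.55 ± 0.19 in knockout against parental in the authors' deposited table. No source used here says how reads in those shared bases were counted. Over 96 measured genes within 5 Mb the median was 0.04, with 28 called higher and 17 lower, a share near the 44.4% called over all genes, in the authors' deposited table.

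Of 9 measured factors known to act on MIR100HG, most of them in the TGF-beta pathway, 6 were called higher and none lower in knockout against parental cells, with a median of 0.47, where 23.2% of all genes were called higher, in the authors' deposited table. ZEB1, a repressor of epithelial genes, was at 2.001 ± 0.10, the receptor TGFBR2 at 0.53 ± 0.09, and its effectors SMAD3 at 0.51 ± 0.10 and SMAD2 at 0.42 ± 0.08 in the authors' deposited table. ZEB1 was lower in FH-5xA than in FH-WT by a derived -0.45 ± 0.09 (adjusted p = 0.00024).

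The other 23 host transcripts were called about as often as all genes in knockout against parental cells. Of the 23, 7 were called higher and 4 lower (47.8%, with 44.4% over all genes), with a median of 0.09, in the authors' deposited table. The higher ones included MIR4697HG (0.66 ± 0.18), MIR222HG (0.52 ± 0.12), which carries miR-221 and miR-222, and MIR34AHG (0.50 ± 0.13), which carries the p53-induced miR-34a, in the authors' deposited table. The lower ones included MIR200CHG (-0.75 ± 0.27), which carries the epithelial microRNAs miR-200c and miR-141, MIR29B2CHG (-0.73 ± 0.17), which carries miR-29b-2 and miR-29c, and MIR924HG (-0.52 ± 0.12), in the authors' deposited table.

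In FH-WT against knockout 1 of the 23, MIR1915HG, was called (4.35%, with 10.1% over all genes), at -0.59 ± 0.17 in the authors' deposited table. In FH-5xA against knockout MIR1915HG (-0.56 ± 0.16) and MIR181A1HG (-0.71 ± 0.17) were called lower, and MIR4697HG (0.80 ± 0.16) and MIR29B2CHG (0.59 ± 0.18) higher, in the authors' deposited table. These are 17.4% of the 23, with 11.3% called over all genes in the authors' deposited table. MIR1915HG had fitted levels of 5.52 CPM in FH-5xA, 5.41 CPM in FH-WT, 8.15 CPM in knockout and 5.48 CPM in parental cells, so it was high in the knockout alone among the 4 groups. In FH-5xA against FH-WT 1 of the 23 was called (4.35%, with 4.11% over all genes): MIR924HG was lower in FH-5xA by a derived -0.49 ± 0.14 (adjusted p = 0.0164). Its fitted levels were 4.56 CPM in FH-5xA, 6.42 CPM in FH-WT, 5.44 CPM in knockout and 7.79 CPM in parental cells.

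**Figure D4:**
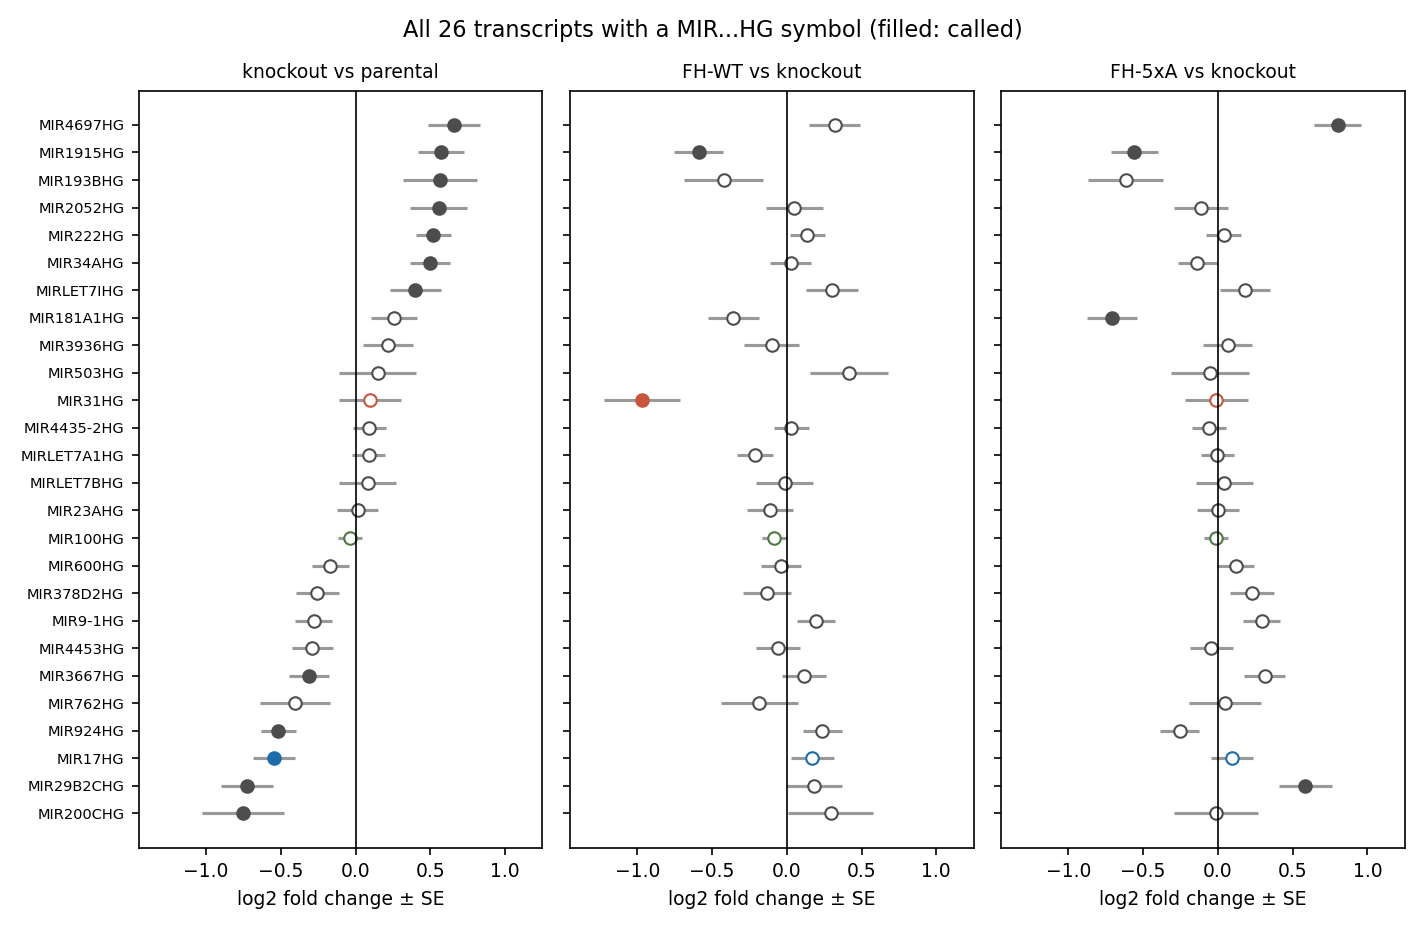
Log2 fold change (x axis, bars ± SE) of all 26 measured MIR...HG transcripts, one a row and in the same order in each panel, in knockout against parental, FH-WT against knockout and FH-5xA against knockout. Filled points were called: 12 of 26 in the first panel, 2 in the second and 4 in the third, with MIR31HG the lowest in the second panel at -0.97.

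Of 10 measured genes of the Microprocessor and its helpers, 4 were called lower and none higher in knockout against parental cells, with a median of -0.18, in the authors' deposited table. Their share of calls, 40.0%, was near the 44.4% over all genes, of which 21.2% were lower, in the authors' deposited table. The lower ones were the RNA-binding partner DGCR8 (-0.34 ± 0.07), the splicing factor SRSF3 (-0.43 ± 0.08), which aids hairpin recognition, ERH (-0.47 ± 0.10) and SAFB (-0.34 ± 0.12), which aid the cutting of weak hairpins in clusters, in the authors' deposited table. DROSHA, the nuclease itself, missed the call at 0.09 ± 0.12 in the authors' deposited table. Against knockout 0 of 10 were called in FH-5xA and 0 of 10 in FH-WT, with 2 at an unadjusted p under 0.05 in each, in the authors' deposited tables (edgeR). Over all genes 11.3% were called in FH-5xA and 10.1% in FH-WT against knockout in the authors' deposited tables.

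Of 26 measured protein-coding and other genes that hold a microRNA, 4 were called higher and 8 lower in knockout against parental cells, with a median of -0.02, in the authors' deposited table. This share, 46.2%, was near the 44.4% over all genes in the authors' deposited table. VMP1, an autophagy gene next to miR-21, was at 0.73 ± 0.08, and DLEU2, the host of miR-15a and miR-16-1, at -0.78 ± 0.11 in the authors' deposited table. CTDSPL, a phosphatase gene and host of miR-26a-1, was at 0.34 ± 0.07 in knockout against parental, and at -0.67 ± 0.07 in FH-5xA and -0.46 ± 0.07 in FH-WT against knockout, in the authors' deposited tables. SKA2, a spindle gene that holds miR-301a and miR-454, was lower in FH-5xA than in FH-WT by a derived -0.31 ± 0.09 (adjusted p = 0.02).

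Known targets of the strands from MIR17HG were mostly higher in the knockout than in parental cells. The knockout had both a lower host and no intact AGO2 gene, and their parts in the targets cannot be told apart. Of 14 miR-17/20 targets, 9 were called higher and 1 lower in knockout against parental cells, with a median of 0.43, in the authors' deposited table. The miR-19 targets counted 8 higher and 1 lower of 11 (median 0.41), the miR-18a targets 5 higher and none lower of 6 (0.37), and the miR-92a targets 7 higher and none lower of 8 (0.51) in the authors' deposited table. Of all genes 23.2% were called higher and the median was -0.01 in the authors' deposited table. The lists share genes, such as BCL2L11 and TP53INP1, and their members have other regulators besides these microRNAs. They were chosen with earlier results of these data known, so their counts beside the background are descriptive only.

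In FH-WT against knockout, where MIR17HG was not called at 0.17 ± 0.14 in the authors' deposited table, the same lists had only lower calls. There were 8 lower of 14 for miR-17/20 (median -0.29), 5 of 11 for miR-19 (-0.37), 3 of 6 for miR-18a (-0.32) and 4 of 8 for miR-92a (-0.29), where 5.85% of all genes were called lower, in the authors' deposited table. In FH-5xA against knockout the counts were 4, 3, 2 and 2 lower, with medians of -0.18, -0.20, -0.30 and -0.19 and a background of 6.24%, in the authors' deposited table. Both comparisons share the knockout libraries with knockout against parental. In FH-WT against parental cells 6, 5, 3 and 2 were called higher and 2, 2, 1 and 0 lower, in the same order of lists, in the authors' deposited table. In FH-5xA against parental cells 8, 6, 4 and 4 were called higher and 1, 1, 0 and 0 lower in the authors' deposited table. Over all genes 18.3% were called higher in FH-WT and 22.9% in FH-5xA against parental cells in the authors' deposited tables. Between FH-5xA and FH-WT a difference was called for STAT3 (0.23 ± 0.07, derived, adjusted p = 0.044), among the miR-17/20 targets, and HIF1A (-0.27 ± 0.09, derived, adjusted p = 0.044), among the miR-18a targets. None of the 11 miR-19 and none of the 8 miR-92a targets passed the adjusted test (chi-square, derived), with 2 in each list at an unadjusted p under 0.05. The background in FH-5xA against FH-WT was 4.11% of all genes (derived). List medians there were 0.09 for miR-17/20, 0.08 for miR-19, 0.11 for miR-18a and 0.14 for miR-92a, with 0.01 over all genes (derived).

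The largest changes among the listed miR-17/20 targets were in CDKN1A, the p53-induced cell cycle inhibitor p21 (2.04 ± 0.11 in knockout against parental), and TP53INP1, a p53-induced stress gene (1.84 ± 0.11), in the authors' deposited table. BCL2L11, which encodes the death-promoting BIM, was at 1.104 ± 0.11 in knockout against parental, and at -0.20 ± 0.11 in FH-5xA, not called, and -0.41 ± 0.11 in FH-WT against knockout, in the authors' deposited tables. ATXN1, a transcriptional corepressor and miR-19 target, was at 1.29 ± 0.08 in knockout against parental, and at -0.50 ± 0.08 in FH-5xA and -0.68 ± 0.08 in FH-WT against knockout, in the authors' deposited tables. CPEB2, a translational regulator and miR-92a target, was at 1.73 ± 0.27 in knockout against parental, and at -0.99 ± 0.25 in FH-5xA and -1.07 ± 0.27 in FH-WT against knockout, in the authors' deposited tables. IRF2, an interferon regulatory factor and miR-18a target, was at 0.85 ± 0.13 in knockout against parental, and at -0.32 ± 0.13, not called, in FH-5xA and -0.46 ± 0.14 in FH-WT against knockout, in the authors' deposited tables.

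One site for each seed of the MIR17HG strands is shown because it places that seed in a gene that carried a large change. Sites were found by a search of the 3′ UTRs of GENCODE 29 (GRCh38) on the sense strand, are written 5′ to 3′ as DNA on the transcript's strand, and capitals mark the match to the seed with an A opposite base 1. They lie at chr2:111166216-111166237 (plus strand), chr4:184388344-184388365 (minus), chr6:16304793-16304814 (minus) and chr4:15069303-15069324 (plus), in the order listed.
BCL2L11 for miR-17-5p: gtctcctgactagaGCACTTTA
IRF2 for miR-18a-5p: tgcagtctgcttctGCACCTTA
ATXN1 for miR-19a-3p: aaagaaccttgcgaTTTGCACA
CPEB2 for miR-92a-3p: ttctgtgttgtgatGTGCAATA
The seed match was in the 3′ UTR of 14 of 14 listed miR-17/20 targets, 11 of 11 miR-19 targets, 8 of 8 miR-92a targets and 5 of 6 miR-18a targets. It was in 7 of 13 miR-31 targets, 7 of 8 searched miR-100 targets, 15 of 17 miR-125b targets and 10 of 14 let-7 targets. The lists are of known targets, so matches in them were likely beforehand. The share of all 3′ UTRs with the same match was not counted. A match is a run of letters and not proof of a site in use.

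Of 13 targets of miR-31, the microRNA of MIR31HG, 6 were called higher and 2 lower in knockout against parental cells, with a median of 0.15 and a background of 23.2% higher and 21.2% lower, in the authors' deposited table. The lower ones were the WNT receptor FZD3 (-0.53 ± 0.10) and the RAC activator TIAM1 (-0.42 ± 0.08) in the authors' deposited table. In FH-WT, where MIR31HG was low, 1 of the 13 was called higher and 1 lower against knockout, with a median of 0.01 and a background of 4.21% higher and 5.85% lower, in the authors' deposited table. In FH-5xA against FH-WT 1 of 13 was called (background 4.11%): DKK1, a secreted WNT inhibitor, was higher in FH-5xA by a derived 0.41 ± 0.11 (adjusted p = 0.017). DKK1 was outside the rule for named genes and was chosen after its values were seen.

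For MIR100HG, 2 of 9 miR-100 targets were called higher and 1 lower in knockout against parental cells, the lower one being AGO2 itself, in the authors' deposited table. Their share of calls, 33.3%, was below the 44.4% over all genes in the authors' deposited table. Against parental cells 4 of the 9 were called higher in FH-5xA (median 0.18, background 22.9% higher) and 3 in FH-WT (median 0.22, background 18.3% higher), with none lower in either, in the authors' deposited tables. AGO2 itself, which both lines carry as FH-AGO2, was among the higher ones in each. It was at 0.38 ± 0.07 in FH-5xA and 0.40 ± 0.07 in FH-WT against parental cells in the authors' deposited tables. In knockout against parental cells the phosphatase MTMR3 was at 0.57 ± 0.10 and the growth factor receptor IGF1R at 0.59 ± 0.17 in the authors' deposited table. The kinase MTOR was not called there, at 0.17 ± 0.08, in the authors' deposited table. Among 17 miR-125b targets 4 were called higher and 1 lower (29.4%, median 0.03), and among 14 let-7 targets 5 higher and 3 lower (57.1%, median 0.10), in knockout against parental cells in the authors' deposited table. HMGA2, a chromatin protein and let-7 target, was at 0.93 ± 0.08 in knockout against parental, and at -0.77 ± 0.08 in FH-5xA and -0.49 ± 0.08 in FH-WT against knockout, in the authors' deposited tables. DICER1, which let-7 is known to target, was at 0.55 ± 0.08 in knockout against parental, and at -0.62 ± 0.08 in FH-5xA and -0.42 ± 0.08 in FH-WT against knockout, in the authors' deposited tables. HMGA2 was lower in FH-5xA than in FH-WT by a derived -0.28 ± 0.08 (adjusted p = 0.022). Other hosts also make let-7, so its targets do not follow MIR100HG alone.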

How the data were processed

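RNA-seq was analysed for 12 HCT116 libraries in 4 groups of 3. Per the submitters' processing notes, the tools were edgeR 3.8.6, featureCounts 1.4.6, TopHat2 2.0.12 and Cufflinks 2.2.1, on hg38 (GRCh38). No source used here gives the annotation, the normalization factors, any filter on low counts or the strand setting. The authors' 5 deposited tables hold, per the file headers, the mean expression in log2 CPM, the log2 fold change, a likelihood ratio score, and a p-value with its false discovery rate, for 15074 genes. Counts per library were not analysed here, so depth is unknown and precision is given by SEs: their median in FH-WT against knockout was 0.232 for genes at 0 to 2 log2 CPM and 0.085 at 6 or more.

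From these values, SE = |log2 fold change| / square root of the likelihood ratio. FH-5xA against FH-WT was FH-5xA minus FH-WT, both against knockout, with group variances solved from the 5 squared SEs, a chi-square test with 1 degree of freedom and Benjamini-Hochberg adjustment over 15072 genes (2 undefined). On simulated data for FH-5xA against FH-WT (15074 genes) it called 90.0% of 100 genes changed by 1 and 59.0% of 100 changed by 0.5 (log2), with 10 false calls of 159. The median derived SE there was 0.957 of the spread of the error. The simulation assumed an equal depth and gave the test each gene's true spread, so it was easier than the data. Its changed genes covered all levels above 0 log2 CPM, so these shares do not hold for a low gene such as MIR31HG. Calls were at a false discovery rate under 0.05. Fitted group levels keep the fold changes and have the deposited mean expression as their mean. Symbols were found for 13999 genes and 15029 were in GENCODE 29. Python 3.11.15, numpy 2.4.6, pandas 2.3.3, scipy 1.17.1 and matplotlib 3.10.9 were used.

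Named genes were the hosts, every other MIR...HG gene, the 3 genes nearest in pattern to each called host (at 0 log2 CPM or more), up to 2 measured neighbours on each side within 1 Mb, and up to 4 genes of each list with the smallest p in knockout against parental; genes inside a host's span, E2F3, EZH2, DROSHA and DKK1 were added after their values were seen. A further gene that the rule names is not reported here. The hosts and lists were chosen with earlier results of these data known. Alternatives were another threshold, a level filter, centring, Holm adjustment, leaving out chromosome 7 and mitochondrial genes, and other derivations of the FH-5xA difference.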

Additional observations from a re-analysis of the deposited data

Results flagged for a closer look

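MIR31HG differed between FH-5xA and FH-WT by 0.96 ± 0.26 (log2, SE, derived, adjusted p = 0.0131), with fitted levels of 2.09 CPM in FH-5xA and 1.08 CPM in FH-WT. It was flagged because the difference between the effects of the reconstitutions was itself tested and passed the threshold. The difference rests on 3 libraries a group of a gene near 1 to 2 CPM.

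MIR924HG was flagged for the same reason, with the opposite sign: FH-5xA minus FH-WT was -0.49 ± 0.14 (log2, SE, derived, adjusted p = 0.0164), with fitted levels of 4.56 CPM in FH-5xA and 6.42 CPM in FH-WT. The call of MIR924HG, like that of MIR31HG, was lost under a false discovery rate of 0.01, under Holm adjustment and with the variance as the sum of both squared errors against knockout, each of which left 0 of the 23 other host transcripts called.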

How the results depend on the processing

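For the 3 hosts no single value reversed under the alternatives run, 81 kept their side of the threshold and 9 lost a call. The alternatives in adjustment, threshold, level filter and variance leave the fold changes as they are. Only centring and leaving out genes could have reversed a direction. With Holm adjustment 0 hosts were called in each of knockout against parental, FH-WT against knockout, FH-WT against parental, FH-5xA against parental and FH-5xA against FH-WT, where Benjamini-Hochberg adjustment called 1, 1, 2, 1 and 1. Under a false discovery rate of 0.01, 1 was called in FH-WT against parental and 0 in FH-5xA against FH-WT. With only genes of at least 1 log2 CPM, which leaves out MIR31HG at 0.86 by construction, 0 were called in FH-WT against knockout, 1 in FH-WT against parental and 0 in FH-5xA against FH-WT. With the variance of FH-5xA against FH-WT as the sum of both squared errors against knockout, 0 were called (MIR31HG, adjusted p = 0.444), since this counts the knockout's variance in full on both sides. Over these settings the adjusted p of MIR31HG in FH-5xA against FH-WT ranged from 0.0131 to 1.0. Of the counts over the lists, 342 stayed within 1.5 times and 106 moved further, 65 of them under Holm adjustment and 28 under a false discovery rate of 0.01. Taking the difference through parental instead of knockout moved 0 of 14 list counts. Both routes give nearly the same difference by construction, so this was not a separate check.

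Solving the variances from the tables against parental alone could not be fitted, having fewer equations than groups. Leaving out replicates was not run because no values per library were analysed. No paired analysis was possible because the values are comparisons of whole groups and carry no replicate numbers. The SE in FH-WT against knockout was 0.25 for MIR31HG and 0.08 for MIR100HG; depth is unknown.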

Other observations

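Among the measured genes were 7 of hairpin length, MIR25, MIR621, MIR15B, MIR4653, MIR3143, MIR7111 and MIR4521, chosen after their values were seen. Their levels lay between 0.02 and 1.39 log2 CPM. Reads of host transcripts and of hairpins cannot be told apart in these values. In knockout against parental cells, where 44.4% of all genes were called, MIR4653 was called higher (0.83 ± 0.25, log2, SE) and MIR3143 lower (-0.68 ± 0.29) in the authors' deposited table. In FH-WT against parental MIR15B (-0.78 ± 0.27) and MIR7111 (-0.67 ± 0.24) were called lower (background 34.4%) in the authors' deposited table. In FH-5xA against parental MIR4653 was called higher (0.81 ± 0.26, background 43.8%) in the authors' deposited table. MIR3143 (-0.70 ± 0.30) and MIR4521 (-0.48 ± 0.20) were called lower there in the authors' deposited table. Against knockout 0 of 7 were called in FH-5xA and 0 of 7 in FH-WT, with 0 and 1 at an unadjusted p under 0.05, in the authors' deposited tables (edgeR). The backgrounds were 11.3% in FH-5xA and 10.1% in FH-WT against knockout in the authors' deposited tables.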
